A study of Mus musculus with 3 samples.

Results

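The miR-29 family is a group of microRNAs, the short RNAs that guide Argonaute proteins to messenger RNAs and repress them. Its 3p arms are best known for repressing messenger RNAs of collagens and of other extracellular matrix proteins, and loss of miR-29 from activated hepatic stellate cells is a textbook feature of liver fibrosis. The family is made from 4 hairpins, and each hairpin is cut into a 5p arm and a 3p arm, of which usually only the 3p arm accumulates. All rows of the count tables named for miR-29a, miR-29b or miR-29c, of either arm, were taken, which gave 7 of 1908 listed mature microRNAs: mmu-miR-29a-3p, mmu-miR-29a-5p, mmu-miR-29b-3p, mmu-miR-29b-1-5p, mmu-miR-29b-2-5p, mmu-miR-29c-3p and mmu-miR-29c-5p (below without the mouse prefix mmu). Members were taken by name, whatever their values, though the family itself was picked with earlier results of these data known.

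Small RNA was sequenced from liver tissue. All mice were male C57BL/6J, an inbred strain, and 8 to 10 weeks old. The Sham library came from mice that had a laparotomy without clamping and a wait of 90 min. The WI (warm ischemia) library came from mice in which the portal triad of the left and median lobes (the artery, portal vein and bile duct that serve them) was clamped for 90 min, and the IR (ischemia followed by reperfusion) library from mice clamped for 90 min and then reperfused for 2 h. The study assigned 6 mice to each group, but each group has 1 library, and whether it holds RNA of 1 or several mice was not stated. No difference below therefore has a replicate check, and each test and interval compares 2 libraries by counting error, not 2 conditions. The IR livers were taken later after surgery than the others, so reperfusion and time since surgery cannot be told apart.

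Depth, in microRNA reads, was 3844133 for Sham, 5064014 for WI and 3784539 for IR. Levels are given as CPM, reads per 1000000 of the library's total after scaling by trimmed mean of M-values (TMM). A count of 3 reads, taken as the smallest level told from none, corresponds to 0.758 CPM for Sham, 0.617 for WI and 0.785 for IR. The hepatocyte microRNA miR-122-5p was abundant in every library (15960, 18999 and 15364 CPM in the order Sham, WI, IR). In such bulk tissue, fewer cells of a type and less microRNA per cell cannot be told apart.

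The sequences of the 3p arms are shown first, because the target specificity of a microRNA lies mainly in its seed (bases 2 to 8, in capitals), and because the arms differed in the libraries. They are given 5′ to 3′ from RefSeq, where all 7 members were matched.
mmu-miR-29a-3p: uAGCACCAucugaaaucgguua
mmu-miR-29c-3p: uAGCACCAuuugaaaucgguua
mmu-miR-29b-3p: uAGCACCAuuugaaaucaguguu

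The 3p arms share their first 9 bases and with them the seed AGCACCA, which pairs with UGGUGCU in a target. None of the other mature sequences in that table had this seed. With positions counted from the 5′ end, miR-29c-3p differs from miR-29a-3p at 1 position, C10U, so that a read with 1 mismatch can fit both names. The genome alignment of the study kept only the best-matching positions of a read. How such reads were treated in the later counting step is not given in the sources used here. MiR-29b-3p differs from miR-29a-3p by C10U, G18A, U21G and A22U and is 1 base longer. It ends in AGUGUU (bases 18 to 23), the hexamer known from cultured cells to direct miR-29b to the nucleus. This hexamer is absent from miR-29a-3p and miR-29c-3p and was found in 12 of 1679 mature sequences (0.715%).

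The 5p arms, the strands usually discarded, are shown because they alone tell the miR-29b hairpins apart, with bases 2 to 8 again in capitals.
mmu-miR-29a-5p: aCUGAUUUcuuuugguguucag
mmu-miR-29c-5p: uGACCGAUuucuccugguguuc
mmu-miR-29b-1-5p: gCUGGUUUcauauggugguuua
mmu-miR-29b-2-5p: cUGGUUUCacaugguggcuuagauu

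No 2 of these 5p arms have the same seed. MiR-29b-1-5p and miR-29b-2-5p are alike in 19 of 21 aligned bases, but miR-29b-2-5p starts 1 base further in, which shifts its seed. The hairpins lie in pairs. Mir29a (chromosome 6, 31062660 to 31062747, minus strand, GRCm38.p6) and Mir29b-1 (chromosome 6, 31063023 to 31063093, minus strand) are 275 bases apart and overlap no other gene in the RefSeq gene table. Mir29b-2 (chromosome 1, 195037040 to 195037120, plus strand) and Mir29c (chromosome 1, 195037547 to 195037634, plus strand) are 426 bases apart within the long non-coding RNA gene A330023F24Rik. In the GENCODE annotation of the NCBIM37 build, each of these hairpins overlapped an exon of 1 of the 3 transcripts of that gene. Both miR-29b hairpins give the same miR-29b-3p, so its reads cannot be assigned to either locus.

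As a share of all microRNA reads, the family made up 0.512% for Sham (Wilson 95% limits 0.505 and 0.519), 0.488% for WI (0.482 and 0.494) and 0.464% for IR (0.457 and 0.471). The 3p arms supplied 19593 of 19680 family reads (Sham), 24618 of 24730 (WI) and 17501 of 17566 (IR), and so 99.5% to 99.6% of them. The microRNA with by far the most reads was miR-29a-3p, which held 88.0%, 85.7% and 88.0% of the family's reads in the order Sham, WI, IR. MiR-29c-3p held 9.97%, 11.7% and 10.3% in the same order, and miR-29b-3p 1.58%, 2.13% and 1.38%. Among all microRNAs ordered by reads, miR-29a-3p was 28th in Sham and 29th in WI and IR, miR-29c-3p was between 69th and 71st, and miR-29b-3p was between 122nd and 159th.

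The 7 members thus spanned more than 3 orders of magnitude. The order of the levels was miR-29a-3p, miR-29c-3p, miR-29b-3p, miR-29c-5p, miR-29a-5p, miR-29b-1-5p and miR-29b-2-5p in Sham and WI, and only the last pair changed places in IR. The 95% Poisson intervals of neighbours among the 3p arms did not overlap in any library. Those of neighbours among the 5p arms overlapped in every library, so their order was resolved only in part. The interval of miR-29c-5p lay above those of both miR-29b 5p arms in each library. Members are 22 to 25 bases long and each read was counted once whatever its length, so no correction for length was made, but adaptor ligation depends on sequence and levels of different members are comparable only roughly.

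**Figure D1:**
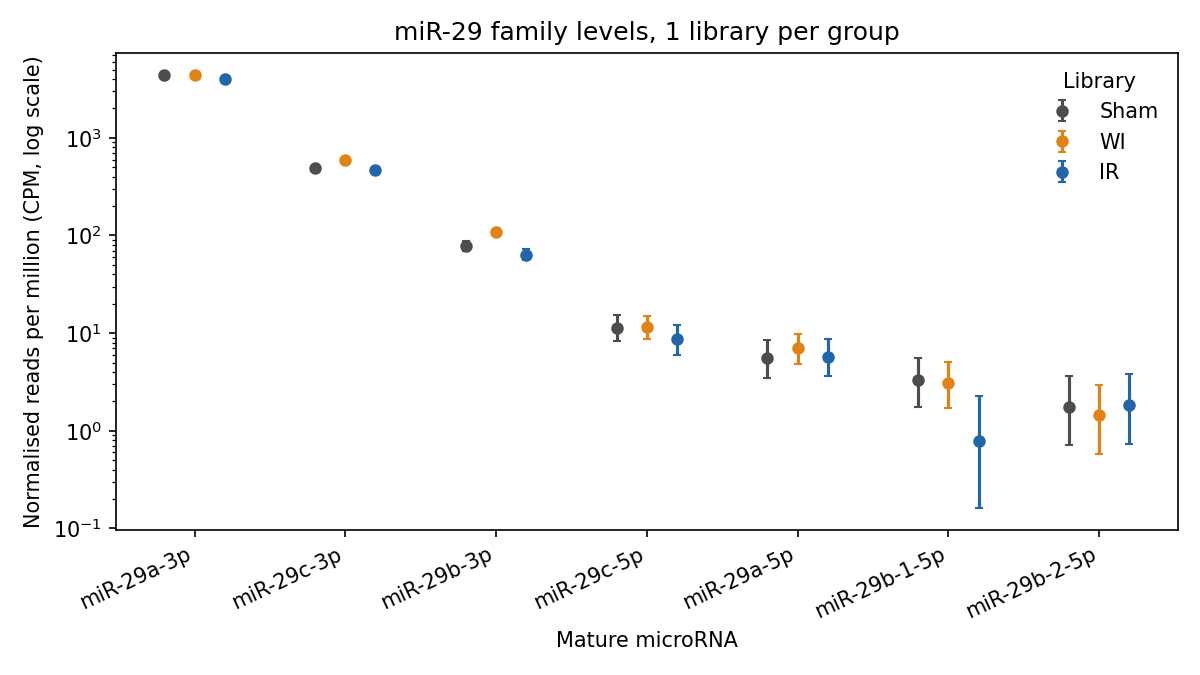
Normalised level of each miR-29 member (CPM, log scale) in the Sham, WI and IR libraries, 1 point per library; bars are exact 95% Poisson intervals, which cover counting error only. MiR-29b-3p is highest in WI (108 CPM), while miR-29a-3p lies between 4041 and 4374 CPM in all 3 libraries.

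Ischemia was compared with sham first. MiR-29a-3p had 17320 reads in Sham and 21194 in WI, or 4374 and 4356 CPM. MiR-29c-3p had 1963 and 2898 reads, or 496 and 596 CPM. MiR-29b-3p had 310 and 526 reads, or 78.3 and 108 CPM. The level of miR-29a-3p was thus nearly equal in the libraries, while those of miR-29c-3p and miR-29b-3p were higher in WI.

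Calls required a fold change larger than 1.5 together with an unadjusted Fisher's exact p below 0.01, criteria taken from the methods of the study. The totals were not the same. The study names the mapped reads of a sample as its total and multiplies it by an edgeR scaling factor. Here the TMM factor was applied to the microRNA reads. Calls with genome-aligned totals, given further below, used no such factor and are not the normalisation of the study. None of the 7 members was called in WI against Sham, where 1.92% of the 782 tested microRNAs were called (1.41% higher, 0.512% lower). On the log2 scale WI exceeded Sham by 0.47 for miR-29b-3p (SE 0.10, Fisher's exact p = 5.92e-06, adjusted over all tested 7.99e-05) and by 0.27 for miR-29c-3p (SE 0.042, Fisher's exact p = 2.84e-10). Both differences were larger than counting error and smaller than the fold required. A p under 0.01 with a smaller fold was found for 81 of the 782 microRNAs (10.4%). For miR-29a-3p the log2 difference was -0.0057 (SE 0.015, Fisher's exact p = 0.700), and its 95% interval ran from -0.035 to 0.023. The median over the 7 members was 0.018, beside 0.046 over all tested microRNAs.

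Reperfusion was compared with ischemia next, and here miR-29b-3p was called. Its level fell from 108 CPM (526 reads) in WI to 63.5 CPM (243 reads) in IR, a log2 difference of -0.77 (SE 0.11, Fisher's exact p = 2.36e-12, adjusted over all tested 2.74e-11). The IR level was 0.588 times that of WI (exact 95% interval 0.503 to 0.686). MiR-29c-3p went from 596 to 472 CPM, a log2 fold change of -0.34 (SE 0.043, Fisher's exact p = 4.54e-15), and miR-29a-3p from 4356 to 4041 CPM, a log2 fold change of -0.11 (SE 0.015, Fisher's exact p = 1.05e-12). Both were below the fold required. All 3p arms were therefore lower in IR than in WI, and the size of the difference ran in the order opposite to abundance.

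Of all 789 tested microRNAs, 9.25% were called in IR against WI, 6.21% higher and 3.04% lower. Of the 7 members 1 was called, as lower, and 7 are too few to compare with these shares. Among 243 microRNAs with 100 or more reads in the pair of libraries, 10 had a lower log2 fold change than miR-29b-3p (4.12%). The median log2 fold change was -0.34 over the members and -0.013 over all tested microRNAs. All other p-values of members, in each comparison, cover counting error only. At an assumed coefficient of variation of 0.1 between animals, none of them met the p criterion (edgeR exact test). The call of miR-29b-3p rests on counting error too. If animals were taken to vary with a coefficient of 0.1, it passed (p = 0.00102, edgeR exact test), but with 0.2 it was lost (p = 0.0729, edgeR exact test), and the true variation was not measured.

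**Figure D2:**
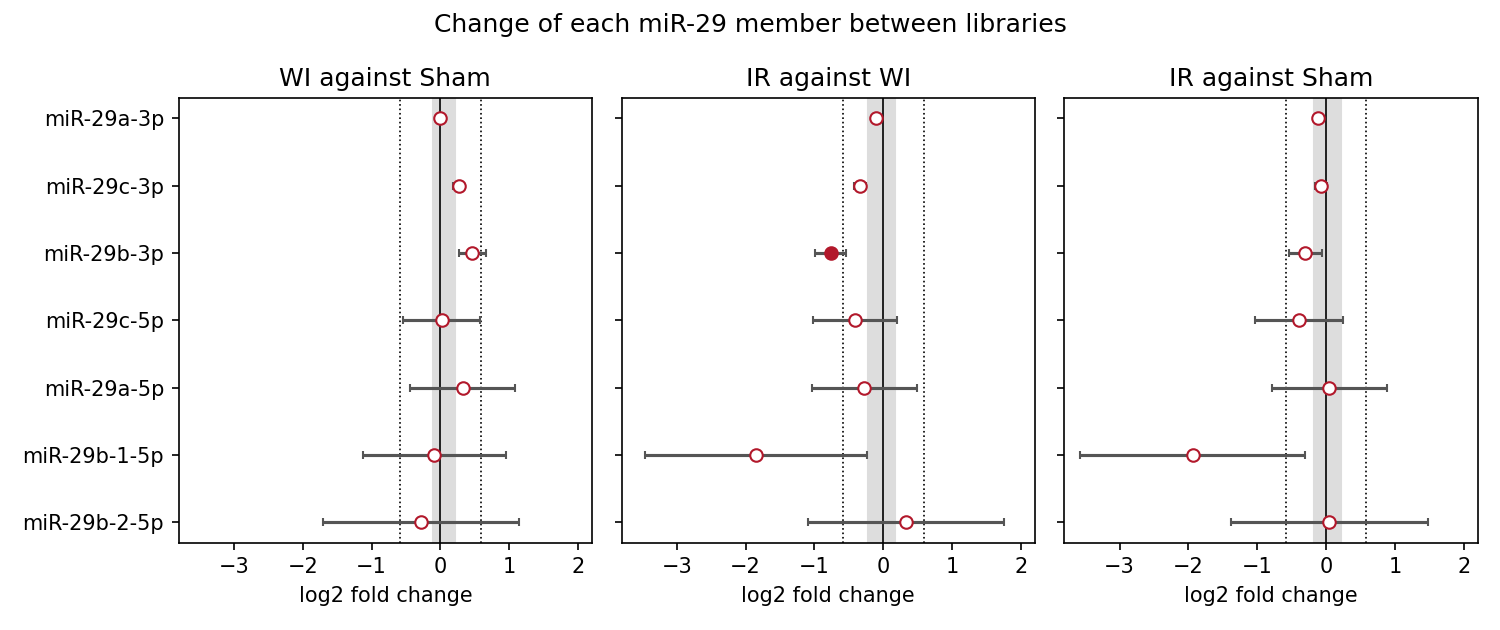
Log2 fold change of each miR-29 member in the 3 comparisons, with 95% intervals from counting error; filled points passed the fold and p criteria, dotted lines mark a 1.5-fold change and the grey band holds the middle 50% of microRNAs with at least 100 reads. Only miR-29b-3p in IR against WI is filled, at -0.77.

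IR was last compared directly with Sham, and no member was called, where 7.11% of the 774 tested microRNAs were called (5.68% higher, 1.42% lower). A p under 0.01 with a smaller fold was found for 69 of the 774 (8.91%). MiR-29b-3p had 310 reads in Sham and 243 in IR, or 78.3 against 63.5 CPM, a log2 fold change of -0.30 (SE 0.12, Fisher's exact p = 0.0153, adjusted over all tested 0.0897). MiR-29c-3p stood at 496 and 472 CPM, a log2 fold change of -0.071 (SE 0.047, Fisher's exact p = 0.130). MiR-29a-3p stood at 4374 and 4041 CPM, a log2 fold change of -0.11 (SE 0.016, Fisher's exact p = 8.11e-13). These values depend on how the libraries are scaled. Over 5 scalings the log2 difference ran from -0.47 to -0.30 for miR-29b-3p, with a Fisher's exact p of 0.0153 with TMM and between 0.000148 and 0.00834 with the other 4, so that the fold criterion was missed in each and the p criterion with TMM alone. For miR-29c-3p it ran from -0.24 to -0.071, with a Fisher's exact p of 0.130 with TMM and between 3.57e-07 and 0.0385 with the other 4. Both were lower in IR than in Sham under each scaling, and for miR-29c-3p whether the difference exceeds counting error is decided by the scaling. Comparisons that share a library are not independent, and the WI library enters both comparisons in which the differences of miR-29b-3p were largest.

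Because the 3p arms share a seed, their reads were also added. The sum was 4948 CPM for Sham, 5060 for WI and 4577 for IR. On the log2 scale WI differed from Sham by 0.032 (95% interval 0.0054 to 0.060), IR from WI by -0.14 (-0.17 to -0.12) and IR from Sham by -0.11 (-0.14 to -0.083). The first of these changed sign with other scalings of the libraries (-0.012 with DESeq2 size factors). Since miR-29a-3p dominates the sum, the shifts of miR-29b-3p hardly show in it.

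The balance of the 3p arms within a library was then examined, since a ratio of reads does not depend on how libraries are scaled. For every 100 reads of miR-29a-3p Sham had 1.79 reads of miR-29b-3p (95% interval 1.600 to 2.002), WI had 2.48 (2.28 to 2.71) and IR had 1.57 (1.39 to 1.78). Of miR-29c-3p, Sham had 11.3 reads per 100 (10.8 to 11.9), WI had 13.7 (13.2 to 14.2) and IR had 11.7 (11.1 to 12.3). In both ratios WI was above Sham and IR, whose intervals overlapped.

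The ratio of miR-29b-3p to miR-29a-3p in WI was 1.39 times that of Sham (95% interval 1.20 to 1.60), and in IR it was 0.634 times that of WI (0.543 to 0.739). The ratio of miR-29c-3p to miR-29a-3p in WI was 1.21 times that of Sham (1.14 to 1.28), and in IR it was 0.854 times that of WI (0.802 to 0.909). All of these intervals exclude 1, so miR-29b-3p and miR-29c-3p moved apart from miR-29a-3p by more than counting error. Between IR and Sham neither did, with 0.879 (0.742 to 1.04) for miR-29b-3p and 1.03 (0.963 to 1.10) for miR-29c-3p.

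MiR-29b-3p also differed from miR-29c-3p in IR against WI. Mir29c lies beside Mir29b-2 on chromosome 1, while Mir29b-1 on chromosome 6 gives the same miR-29b-3p. Per 100 reads of miR-29c-3p Sham had 15.8 reads of miR-29b-3p, WI had 18.2 and IR had 13.5. The IR ratio was 0.742 times that of WI (95% interval 0.631 to 0.874). The WI ratio was 1.15 times that of Sham (0.988 to 1.34) and the IR ratio 0.853 times that of Sham (0.713 to 1.02), both with an interval that includes 1. Of the 9 comparisons of these ratios, 5 had an interval that excludes 1.

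**Figure D3:**
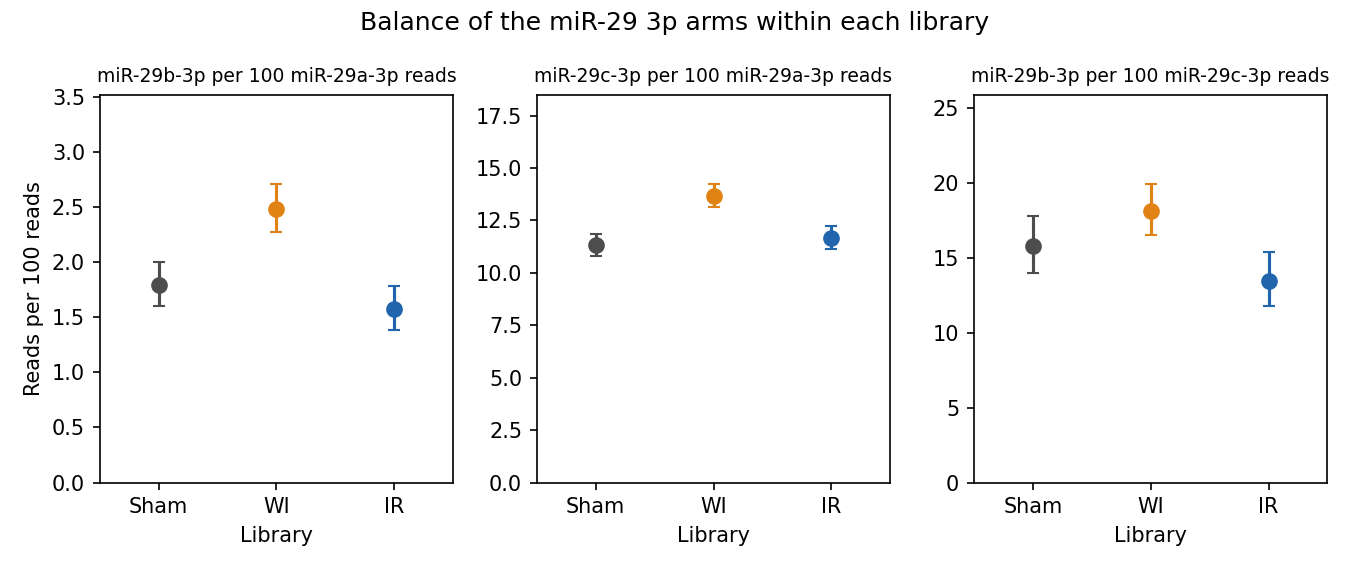
Reads of one miR-29 3p arm per 100 reads of another within the Sham, WI and IR libraries, 1 point per library, with 95% Wilson-based intervals for counting error; each axis starts at 0. WI lies above Sham and IR in each panel, and its interval is clear of both in the ratios to miR-29a-3p.

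The 5p arms had few reads. In the order Sham, WI, IR, miR-29c-5p had 45, 56 and 33 reads (11.4, 11.5 and 8.63 CPM). MiR-29a-5p had 22, 34 and 22 reads (5.56, 6.99 and 5.75 CPM). For neither was a difference detectable at this depth, with unadjusted Fisher's exact p between 0.201 and 1 over the 3 comparisons.

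The 5p arms of the miR-29b hairpins were the scarcest. MiR-29b-2-5p, from chromosome 1, had 7 reads in each library, or 1.77, 1.44 and 1.83 CPM. MiR-29b-1-5p, from chromosome 6, had 13, 15 and 3 reads in that order, or 3.28, 3.08 and 0.785 CPM, the last at the floor of 3 reads. Its IR level was 0.239 times that of Sham (exact 95% interval 0.0437 to 0.870, Fisher's exact p = 0.0216) and 0.254 times that of WI (0.0472 to 0.899, Fisher's exact p = 0.0296), and neither passed the p criterion. Whether the hairpins differed was looked at after the values had been seen. The odds of miR-29b-1-5p against miR-29b-2-5p in IR were 0.211 times those in WI (exact 95% interval 0.0268 to 1.27), so a difference between the loci was not detectable at this depth.

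No change in the balance of the arms of a hairpin was detectable. For each read of miR-29a-5p, Sham had 787 reads of miR-29a-3p, WI had 623 and IR had 702. For each read of miR-29c-5p there were 43.6, 51.8 and 54.7 reads of miR-29c-3p in the same order. MiR-29b-3p had the least one-sided ratio, with 15.5, 23.9 and 24.3 reads for each read of its 5p arms summed. All 9 intervals for a change of these ratios between libraries include no change, and they are wide: for miR-29b the WI ratio was 1.54 times that of Sham (0.828 to 2.87).

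The microRNAs whose levels followed those of the 3p arms most closely over the 3 libraries were found among 275 other microRNAs with at least 100 reads in all. Likeness was measured by the largest difference in log2 CPM after each profile was centred on its own mean, a description that rests on 3 points. For miR-29b-3p these were miR-26b-3p (difference 0.049), with 19.4, 25.7 and 16.0 CPM in Sham, WI and IR, miR-101c (0.091), with 24.5, 35.8 and 18.6 CPM, and miR-34a-5p (0.093), with 34.1, 44.0 and 29.3 CPM. Only 5 microRNAs came within 0.1 of miR-29b-3p, against 57 for miR-29a-3p and 22 for miR-29c-3p. For miR-29b-3p a difference of 0.1 is no larger than counting error. The SE of its log2 fold changes was 0.10 to 0.12, and miR-26b-3p had 77, 125 and 61 reads. The order of the nearest and these counts are therefore approximate. For miR-29c-3p the nearest were let-7d-5p (0.015), miR-122-5p (0.016) and miR-152-5p (0.035). For miR-29a-3p they were miR-181c-3p (0.0085, with 103, 125 and 91 reads), miR-130a-3p (0.018) and miR-874-3p (0.020, with 75, 91 and 68 reads).

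Other microRNAs linked to liver fibrosis or to stellate cell activation were set beside the family. Of 20, which included miR-21a-5p and miR-199a-5p as drivers and miR-122-5p and miR-30c-5p as restrainers, 1 was called higher and 0 lower when WI was set against Sham. When IR was set against WI, 1 was called higher and 2 lower, and when it was set against Sham, 1 was called higher and 0 lower. Over all tested microRNAs, the shares called higher and lower were 1.41% and 0.512%, 6.21% and 3.04%, and 5.68% and 1.42% in these comparisons. The median log2 fold change of the 20 was 0.096, -0.061 and -0.0060 in these comparisons, beside 0.046, -0.013 and 0.036 over all tested microRNAs. The one called higher each time was miR-133a-3p, better known as a muscle microRNA, whose level was 6.82 CPM for Sham, 23.6 for WI and 73.2 for IR. The lower ones were miR-34a-5p, a p53 target, with a log2 fold change of -0.59 in IR against WI (SE 0.17), and miR-101a-3p, which represses the histone methyltransferase Ezh2, with -0.60 (SE 0.016). Like miR-29b-3p, both were highest in WI, where miR-101a-3p stood at 4667 CPM, above 3647 in Sham and 3089 in IR.

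Markers of other cell types also moved between the libraries, and their part in the miR-29 values was not tested. In the order Sham, WI, IR, the summed level of 3 red cell microRNAs was 4926, 4651 and 8824 CPM, with 2 of 3 called higher in IR than in WI and 3 of 3 higher than in Sham. That of 3 muscle microRNAs was 6.82, 23.8 and 75.1 CPM, nearly all of it miR-133a-3p. The summed level of 5 stromal microRNAs, the class that includes stellate cells, was 39670, 43072 and 35224 CPM, with none of the 5 called in any comparison. Nearly all of it was miR-143-3p (38597, 42013 and 34215 CPM), while miR-214-3p (40.2, 34.7 and 46.5 CPM) was lowest in WI. The summed level of 5 leukocyte microRNAs was 3094, 3054 and 2806 CPM, mostly miR-142-5p (2735, 2672 and 2342 CPM). Of these, miR-223-3p was called higher in IR (110 CPM in Sham, 109 in WI, 236 in IR). The others were lower in IR than in WI and not called. Their log2 fold changes there were -0.36 (miR-142-3p), -0.19 (miR-142-5p), -0.13 (miR-150-5p) and -0.21 (miR-155-5p). For 2 endothelial microRNAs the summed level was 19267, 22783 and 17568 CPM, mostly miR-126a-5p, while miR-126a-3p lay between 2951 and 2985 CPM. For 3 hepatocyte ones it was 260230, 278163 and 253201 CPM. No marker was at 0 in all libraries, but the muscle markers miR-1a-3p and miR-206-3p had at most 6 reads in each.

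Base composition moved weakly with the differences as well. The GC content is 40.9% in miR-29a-3p, 36.4% in miR-29c-3p and 34.8% in miR-29b-3p, the order of their shifts from WI to IR. Across 205 microRNAs with at least 100 reads and a RefSeq sequence, Spearman's rho between GC content and log2 fold change was 0.27 for IR against WI, and -0.22 across 208 for WI against Sham. The points share libraries and are not replicates. In IR against WI the median log2 fold change was -0.14 over the third of microRNAs poorest in GC, which holds the 3p arms. Relative to that median the value was -0.62 for miR-29b-3p, still past the fold required, -0.20 for miR-29c-3p and 0.033 for miR-29a-3p, whose sign changed.

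The scaling of the libraries moved all members together. Over 5 scalings the log2 fold change of miR-29b-3p lay between 0.36 and 0.62 for WI against Sham and between -1.09 and -0.69 for IR against WI, and that of miR-29c-3p between 0.16 and 0.42 and between -0.66 and -0.26. That of miR-29a-3p lay between -0.11 and 0.15 in WI against Sham, so its direction there is not determined, and between -0.43 and -0.036 in IR against WI. The ends on the side of larger change came from scaling by all genome-aligned reads, with which the median log2 fold change of all tested microRNAs was 0.20 for WI against Sham and -0.32 for IR against WI, beside 0.046 and -0.013 with TMM. With it, calls over all microRNAs went from 11 to 23 higher in WI against Sham and from 24 to 73 lower in IR against WI. Among the members, miR-29b-3p was called higher in WI against Sham, and miR-29c-3p and miR-29b-1-5p joined miR-29b-3p in being called lower in IR against WI.

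**Figure D4:**
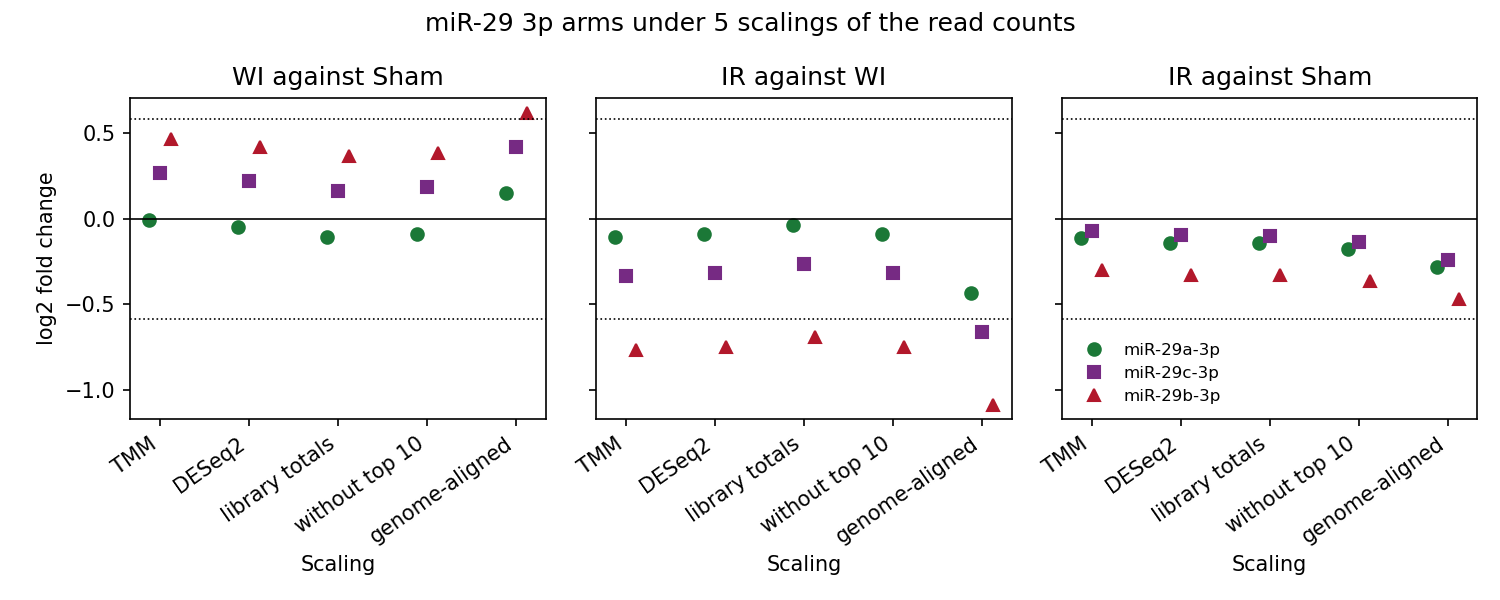
Log2 fold change of the miR-29 3p arms in the 3 comparisons under 5 scalings of the read counts; dotted lines mark a 1.5-fold change. MiR-29b-3p is above the other arms for WI against Sham and below them for IR against WI under each scaling, and miR-29a-3p crosses 0 in WI against Sham.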

How the data were processed

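Values were deposited as raw counts of reads for each mature microRNA in 3 libraries (Sham, WI and IR, grouped by sample title). According to the methods of the study, the authors trimmed adaptors, discarded poor or wrongly sized reads, aligned the rest with Bowtie (0.12.7 in the submitters' processing notes) with 1 mismatch allowed, sorted alignments with HTSeq and took the counts from miRDeep2. The methods name the mm9 genome for small RNA and the submitters' processing notes mm10. Counting is by microRNA name, and positions here are those of RefSeq on GRCm38.p6. Reads were PCR copies without molecular identifiers, so intervals and floors cover counting error only.

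Here, totals were scaled by TMM (edgeR 4.0.16, R 4.3.3), with factors that stayed near unity (1.03 in Sham, 0.961 in WI and 1.01 in IR). Log2 fold changes were taken on log2(CPM + 0.1), which understates changes of scarce microRNAs, with standard errors from the counts. Fisher's exact test (two-sided, scipy 1.17.1) compared the reads of each microRNA seen in a pair of libraries with the scaled totals, and p-values were adjusted by Benjamini-Hochberg over all tested. Without replicates the quasi-likelihood test could not be fitted. Changes of a ratio carry 95% intervals from the 4 read counts. Alternatives were other scalings, the pseudocount, the read minimum, the criteria for p and fold, equal depth and an assumed variation of animals. The other scalings were size factors of DESeq2 1.42.0, unscaled totals and totals that leave out the 10 most abundant microRNAs. The last was the genome-aligned totals of the study without a TMM factor. Named microRNAs are all members, the 3 nearest to each 3p arm, listed fibrosis microRNAs that were called and miR-122-5p. Other list members and cell type markers named (miR-21a-5p, miR-199a-5p, miR-30c-5p, miR-223-3p, both miR-142 arms, miR-150-5p, miR-155-5p, miR-1a-3p, miR-206-3p, miR-143-3p, miR-214-3p and both miR-126a arms) lie outside this rule and were chosen after their values were seen. The procedure was tested on simulated data. The members and lists were chosen with earlier results of these data known.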

Additional observations from a re-analysis of the deposited data

How the results depend on the processing

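No paired analysis was possible because each group had 1 library, and for the same reason no replicate could be left out. The number of members called, which was 0 for WI against Sham, 1 for IR against WI and 0 for IR against Sham, became 1, 3 and 0 with genome-aligned totals and 0, 2 and 1 at p under 0.05. With genome-aligned totals, calls over all microRNAs in IR against WI also went from 49 to 38 higher and from 24 to 73 lower. They went from 11 to 23 higher and from 4 to 2 lower in WI against Sham. In IR against Sham they went from 44 to 35 higher and from 11 to 27 lower. Calls over all microRNAs at p under 0.05 were not counted. In IR against WI the number of members called became 0 at a fold above 2 and with an assumed coefficient of variation of 0.2 or 0.4. The other alternatives for the calls left the 3 numbers unchanged. The summed 3p arms in WI against Sham, 0.032 on the log2 scale, became -0.012 (DESeq2), -0.068 (library totals), -0.050 (without the 10 most abundant) and 0.19 (genome-aligned totals). In IR against WI the sum became -0.072 with library totals and -0.47 with genome-aligned totals, and in IR against Sham -0.18 without the 10 most abundant and -0.28 with genome-aligned totals. Changes of ratios between 3p arms moved by less than counting error when libraries were thinned to equal depth or 0.5 was added to each count.

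Of 126 recomputed log2 fold changes of single members, 113 kept their direction and call, 3 gained a call, all with genome-aligned totals, and 10 changed sign, none of which concerned a called value. With genome-aligned totals, WI against Sham became 0.15 for miR-29a-3p and 0.061 for miR-29b-1-5p, and IR against Sham became -0.11 for miR-29a-5p and -0.10 for miR-29b-2-5p. MiR-29c-5p in WI against Sham became -0.026 (DESeq2), -0.081 (library totals), -0.063 (without the 10 most abundant) and -0.082 (thinned). Without the 10 most abundant, IR against Sham became -0.014 for miR-29a-5p and -0.013 for miR-29b-2-5p. Values were also taken relative to the median of the third of microRNAs poorest in GC, an alternative chosen after seeing the data. With it, miR-29a-3p in IR against WI became 0.033, and miR-29c-3p in IR against Sham became 0, being itself the median. The other 7 values of the 3p arms kept their call and sign. The causes were not tested. Depth limits the 5p arms, whose 3 to 56 reads leave wide intervals, and several ratios of miR-29b-3p (243 to 526 reads). All members lack replicates.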
